A study of Mus musculus with 9 samples.

Results

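The transcript profile described here is that of untreated natural killer (NK) cells grown from mouse bone marrow, in the 3 libraries Ctrl 1, Ctrl 2 and Ctrl 3 of a series of 9. The members were chosen by label: they are the libraries whose titles name the control group. The other 6 libraries come from cells given TGF-β1, with or without the compound SIS3, and do not enter any value below. The cells came from the femurs of C57BL/6 mice. Marrow was cultured in MEM-α medium, first for 4 days with IL-7 at 1 ng/mL, Flt3L at 10 ng/mL, SCF at 30 ng/mL and IL-15 at 50 ng/mL. A second culture of a week followed, with IL-15 at 50 ng/mL and IL-2 at 20 ng/mL. The Ctrl cells received neither TGF-β1 nor SIS3. Not stated in the labels are the age and sex of the mice, any sorting step, and whether the replicates were separate mice or separate cultures. The spread between libraries may therefore be technical.

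NK cells are innate lymphocytes that kill infected or transformed cells by releasing granules. Perforin opens the target membrane, and granzymes, a family of serine proteases, enter and start cell death. Receptors that activate or inhibit the cell decide on release, IL-15 and IL-2 sustain growth through a shared receptor, and the T-box factors EOMES and T-BET set NK identity.

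The table held 16876 genes, with 16118249 expected counts in Ctrl 1, 16435018 in Ctrl 2 and 16400028 in Ctrl 3. Levels are given as CPM, a count scaled to its library's total, and 1 CPM corresponded to 16.3 ± 0.174 counts (SD, n = 3). CPM states a gene's share of the reads, so words such as high, low or led describe shares of reads wherever CPM is given. Levels of different genes are compared as TPM, which also divides by transcript length. A gene is described as detected where all 3 libraries had at least 1 CPM, which was the case for 11168 genes (66.2%). Counts of detected list members below are to be read against that share of all genes. The median over all genes was 9.61 CPM. A gene listed at 0 in a library could hold up to 0.183 to 0.186 CPM by counting error alone, taken as 3 counts. Pearson's r of log2(CPM + 1) across genes was 0.996 to 0.997 for the 3 pairs of libraries; genes are not independent replicates.

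The label was checked against 5 NK cell markers. Gzmb, the gene of granzyme B, had 8546, 8011 and 8048 CPM in Ctrl 1 to 3 and was the gene of rank 5. Prf1, the gene of perforin, had 6317, 6121 and 6122 CPM, at rank 11. Eomes had 546, 535 and 535 CPM, at rank 245. Ncr1, which encodes the activating receptor NKp46, had 147, 145 and 157 CPM, at rank 1149. Klrk1, which encodes the activating receptor NKG2D, had 65.9, 61.9 and 66.1 CPM, at rank 2928. All 5 were detected and lay above the median gene. In bulk RNA, fewer cells of a type and less RNA per cell cannot be told apart. Ranked by TPM the markers stood at 9 for Gzmb, 18 for Prf1, 390 for Eomes, 635 for Ncr1 and 1325 for Klrk1, and the last became 3102 when the length of the union of all exons replaced that of a single transcript.

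**Figure D1:**
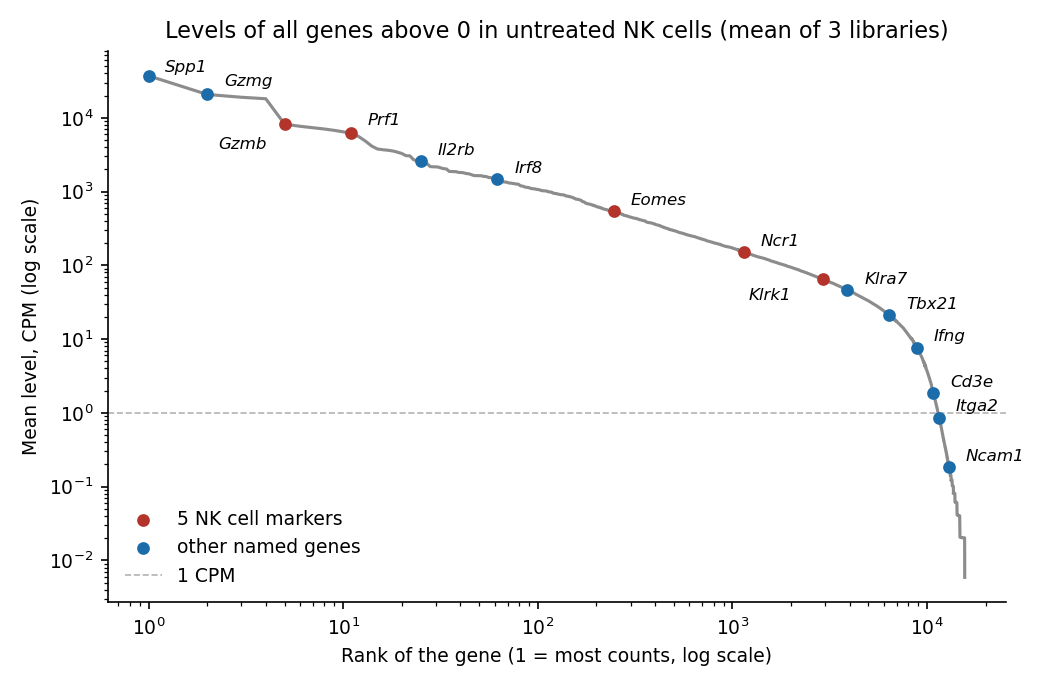
Mean level in CPM (log scale) of every gene above 0, against its rank (log scale), with the 5 NK cell markers in red and other named genes in blue. Gzmb (8202 CPM) and Prf1 (6186 CPM) sit near the top, while Tbx21 (21 CPM) and Ifng (7.66 CPM) lie where the curve turns down.

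Granzymes took 7.01% of all counts, against 8.80% for the 84 ribosomal protein genes together. Members of the family are close relatives, so reads could be counted for the wrong gene, and their coding sequences were compared for this reason. The window printed here, coding bases 118 to 177 (115 to 174 in Gzmb), shows how the most abundant members differ. The sequences are the mRNA strand from GENCODE M21 transcripts of GRCm38, where all 6 genes lie on the minus strand of chromosome 14. Capitals mark bases that differ from Gzmd.
Gzmd: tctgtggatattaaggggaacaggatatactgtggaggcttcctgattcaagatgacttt
Gzme: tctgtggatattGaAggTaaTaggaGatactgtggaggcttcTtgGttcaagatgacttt
Gzmg: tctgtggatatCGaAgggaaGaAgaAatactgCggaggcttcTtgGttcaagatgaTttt
Gzmf: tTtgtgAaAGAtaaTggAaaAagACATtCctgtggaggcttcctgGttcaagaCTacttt
Gzmc: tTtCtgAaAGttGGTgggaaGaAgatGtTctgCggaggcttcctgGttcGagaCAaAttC
Gzmb: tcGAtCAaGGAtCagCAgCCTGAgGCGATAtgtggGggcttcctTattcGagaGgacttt
In these 60 bases Gzme differed from Gzmd at 7 positions, Gzmg at 10, Gzmf at 16, Gzmc at 19 and Gzmb at 25.

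Over the whole coding sequence Gzmd and Gzme were 94.8% identical, Gzme and Gzmg 88.8%, Gzmf and Gzmg 86.3%, and Gzmb and Gzmc 75.3%. The longest run common to Gzmd, Gzme, Gzmf and Gzmg was 35 bases, at coding bases 355 to 389 of Gzmd. None of the 100-base windows of a granzyme coding sequence (0 of 657 in Gzmd and 0 of 645 in Gzme, for example) occurred in another granzyme, and 100 bases is the length of 1 read. A full read without errors inside the coding sequence thus matched only 1 granzyme gene exactly. Only exact matches were counted, so reads could still be misplaced between close relatives such as Gzmd and Gzme. Untranslated regions were not compared.

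The 10 granzyme genes in the table summed to 71393, 71504 and 67405 CPM, or 7.01% of all counts. The sum was lowest in Ctrl 3. Gzmg was the second gene of the whole profile, with 21028, 21441 and 19710 CPM. Gzmd followed with 18974, 19418 and 18535 CPM, all 3 below every Gzmg library.

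Gzmf had 8006, 7909 and 7093 CPM, Gzme 6868, 6957 and 6424 CPM, and Gzmc 5801, 5540 and 5384 CPM. Ctrl 3 was the lowest library for all of Gzmc, Gzmd, Gzme, Gzmf and Gzmg. Gzmb was highest in Ctrl 1, and Gzma, a tryptase-like granzyme, had 2147, 2206 and 2187 CPM. Gzma therefore did not share the low value of Ctrl 3.

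On the TPM scale the order of levels was Gzmg (41905 ± 1383), Gzmd (36182 ± 403), Gzmf (15336 ± 882), Gzme (13542 ± 437), Gzmc (11464 ± 425), Gzmb (10501 ± 428) and Gzma (4565 ± 64.0; mean ± SD, n = 3). No 2 neighbours in this order overlapped over the 3 libraries. Gzmd, Gzme, Gzmf and Gzmg together stood at 9.92, 10.7 and 9.93 times the TPM of Gzmb, and Gzmb at 2.43, 2.22 and 2.25 times that of Gzma. The TPM of perforin (Prf1) was 4704, 4488 and 4600, which overlapped that of Gzma. The remaining granzymes were of another order: Gzmn had 11.5 ± 1.08 CPM and Gzmk 11.1 ± 1.82 CPM. Gzmm, with 0.248, 0.122 and 0.244 CPM, was near the limit of counting.

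The abundant granzymes other than Gzma lie side by side. From Cma1 to Gzmb, chromosome 14 bases 55941451 to 56262260 (GRCm38), the table held 15 genes over 321 kb, of which 10 were detected and 9 had 100 CPM or more. This stretch, whose bounds were chosen after the values were seen, held 6.85% of all counts. Cma1, a chymase gene usually linked to mast cells, had 119, 127 and 115 CPM at the end with the lowest coordinate. Mcpt8, a protease gene linked to basophils, had 253, 247 and 239 CPM, and Ctsg, the cathepsin G gene linked to neutrophils, had 274, 288 and 250 CPM.

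Between Cma1 and Mcpt8, the protease genes Mcpt1, Mcpt9 and Cma2 had means of 0, 0.0410 and 0.0613 CPM. Beyond Mcpt8 the genes stand in the order Ctsg, Gzme, Gzmd, Gzmg, Gzmn, Gzmf, Gzmc and Gzmb. Gzmn, at 56165797 to 56174599, is the only gene under 100 CPM in that run, and it sits between the second-highest gene of the profile, Gzmg, and Gzmf.

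**Figure D2:**
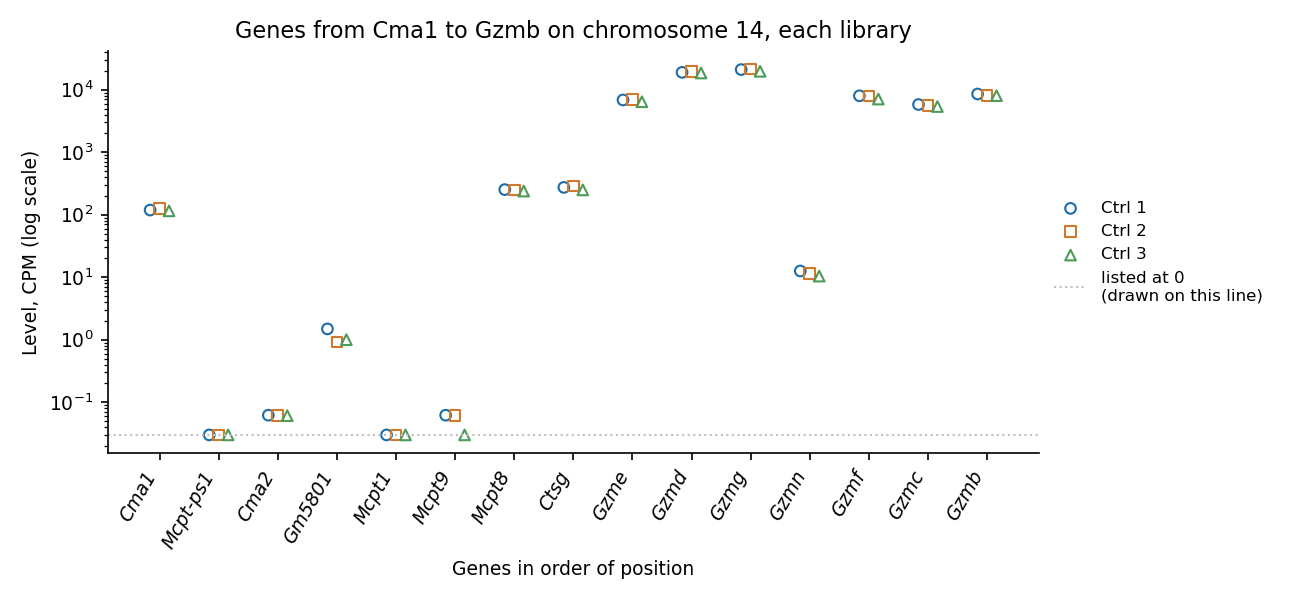
Level in CPM (log scale) of the 15 genes from Cma1 to Gzmb in order of position, with 1 symbol for each library. Granzyme genes other than Gzmn lie at or above the 5384 CPM of Gzmc in Ctrl 3, Mcpt8 and Ctsg between 239 and 288 CPM, and the genes listed at 0 are drawn on the dotted line.

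Genes that load, protect or release granules were detected throughout. All 13 genes of granule matrix, lysosomal proteases and granzyme control were detected, with a median of 471 CPM, and 11 had 100 CPM or more. Ctsd, the lysosomal protease cathepsin D, led with 4233, 4164 and 4030 CPM and gave 37.4% of the sum of this list. Srgn, the core protein of the granule matrix proteoglycan, had 1029, 1030 and 998 CPM. Serpinb9, an intracellular inhibitor of granzyme B, had 925, 939 and 898 CPM. Its TPM was 0.0448 to 0.0485 of that of Gzmb. Nkg7, a granule membrane protein of cytotoxic cells, had 460, 476 and 478 CPM.

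All 14 genes of granule transport and release were also detected, with a median of 89.8 CPM. The list was led by Sytl2 (404, 376 and 392 CPM), which tethers granules, and Rab27a (272, 282 and 281 CPM), the GTPase of granule docking. Unc13d, which primes granules for fusion, had 159, 154 and 151 CPM. Death ligands took few reads. Fasl, the ligand of FAS, had 110, 104 and 105 CPM and made up 68.3% of the sum of its list, and Tnfsf10 (TRAIL) had 9.04 ± 0.848 CPM.

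Spp1, which encodes the secreted phosphoprotein osteopontin, was the gene with the most counts in each library, at 37792, 36689 and 36680 CPM. It alone took 3.71 ± 0.0639% of counts, and its TPM was 4.50, 4.66 and 4.64 times that of Gzmb. Spp1 lies on chromosome 5 at 104435118 to 104441050 on the plus strand. The 10 highest genes of a library took 13.8 ± 0.234% of its counts, and 440 to 466 genes took 50%. Among the 112 genes with 1000 CPM or more, 44 encoded ribosomal proteins, 9 belonged to the actin list, 8 were granzymes or perforin and 6 were translation factors.

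Of those 112 genes, 5 encoded receptors or other surface proteins of the fixed lists. They were Il2rb, Thy1, Tnfrsf9, Havcr2 and Pecam1. Irf8 was the only transcription factor of the NK list among them. The 27 genes in none of these groups included Spp1, both ferritin chains (Ftl1 at 3772 CPM and Fth1 at 2165 CPM), the nuclear RNA Neat1 (2038 CPM), the desaturase gene Scd2 (2022 CPM), the galectin gene Lgals3 (1877 CPM), the complement regulator Cd55 (1780 CPM) and Dsc2 (1742 CPM), which encodes a desmosomal cadherin. Highly conserved genes such as Eef1a1, Tmsb4x, Ftl1 and those of ribosomal proteins have near-identical processed copies in the mouse genome, so their counts are uncertain.

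The 3 chains of the IL-2 receptor were among the abundant receptor genes. Il2rb, the β chain shared by the IL-2 and IL-15 receptors, had 2646, 2476 and 2563 CPM. Il2ra, the α chain of the high-affinity IL-2 receptor, had 587, 633 and 589 CPM, and Il2rg, the common γ chain, had 404, 382 and 372 CPM. In TPM, Il2rb (1123 ± 47.0) stood above Il2rg (425 ± 17.7), and Il2rg above Il2ra (251 ± 8.05), with no overlap between libraries. Il15ra, the chain that presents IL-15, had 8.07, 8.09 and 7.80 CPM.

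Of the 29 cytokine receptor genes listed, 26 were detected, with a median of 26.9 CPM. Flt3L, SCF and IL-7 were given only in the first culture. Their receptor genes Flt3, Kit and Il7r averaged 0.163, 175 and 8.68 CPM. All 11 JAK and STAT genes were detected; Jak1 had 659, 639 and 670 CPM and Jak3, the kinase that binds the common γ chain, 204, 181 and 182 CPM.

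Genes known to respond to IL-2 and IL-15 differed widely in level. After Gzmb, which gave 80.1% of the sum of that list, came Il2ra, Ccnd2 (444, 436 and 432 CPM), a cyclin of G1 phase, and Mcl1 (365, 390 and 380 CPM), a survival factor. The feedback inhibitors took few reads, with means of 11.4 CPM for Cish, 12.1 for Socs1, 10.9 for Socs2 and 8.96 for Socs3. In all, 14 of 16 genes of the list were detected.

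Activating receptors were detected for 17 of 20 genes, with a median of 50.6 CPM. Tnfrsf9 (4-1BB), a costimulatory receptor induced by activation, was the highest, with 1346, 1382 and 1331 CPM, or 42.1% of the list's sum. Klrb1c, which encodes NK1.1, had 187, 183 and 202 CPM. Fcgr3, the Fc receptor of antibody-directed killing, had 267, 269 and 276 CPM. Cd226 (DNAM-1) had 3.97, 3.22 and 3.29 CPM, and Klrc2, Klrc3 and Tnfrsf4 were under 1 CPM in all 3 libraries.

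Inhibitory receptors were detected for 17 of 19 genes, with a median of 51.0 CPM, so the 2 lists had like medians and shares. Havcr2 (TIM-3) had 1109, 1079 and 1066 CPM and Klrg1, a receptor of mature NK cells, 668, 660 and 662 CPM. In TPM Klrg1 (862 ± 13.8) stood above Havcr2 (733 ± 16.1), the reverse of their CPM order. Pdcd1 (PD-1) had 0.682, 0.730 and 0.671 CPM, and Siglecg was also under 1 CPM in all 3. Klrd1 (CD94) had 108, 119 and 106 CPM, and its TPM was 7.89, 7.64 and 7.09 times that of its partner Klrc1 (NKG2A).

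Ly49 receptors, which read MHC class I, were low. Of the 13 listed genes 9 were detected, with a median of 3.86 CPM, and none reached 100 CPM. Klra7, the highest, had 44.9, 47.2 and 47.1 CPM and gave 35.6% of the sum. Klra5 averaged 25.4 CPM, Klra3 18.0 CPM, Klra2 17.3 CPM and Klra8 9.32 CPM. Klra3, Klra9 and Klra10 are 96.2% to 96.9% identical to their nearest relative in coding sequence, and Klra3 and Klra10 share 3.15% of their 100-base windows. Klra8 and Klra9 share 1.00%. The split of counts within each of these pairs is therefore uncertain. The whole NK gene complex from Klrb1a to Klra2 on chromosome 6 (50 genes in the table over 2638 kb) summed to 1195, 1230 and 1235 CPM, or 0.122% of counts.

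All 24 signalling adaptors and kinases were detected, with a median of 112 CPM. Fcer1g, the adaptor of Fc receptors and NKp46, had 838, 863 and 845 CPM. Tyrobp (DAP12) had 584, 588 and 544 CPM, while Hcst (DAP10), an adaptor of NKG2D, had 7.38, 11.0 and 7.56 CPM. In TPM Tyrobp stood 62.0, 41.8 and 56.4 times above Hcst. Cblb, a ubiquitin ligase that restrains NK signalling, had 836, 772 and 809 CPM.

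**Figure D3:**
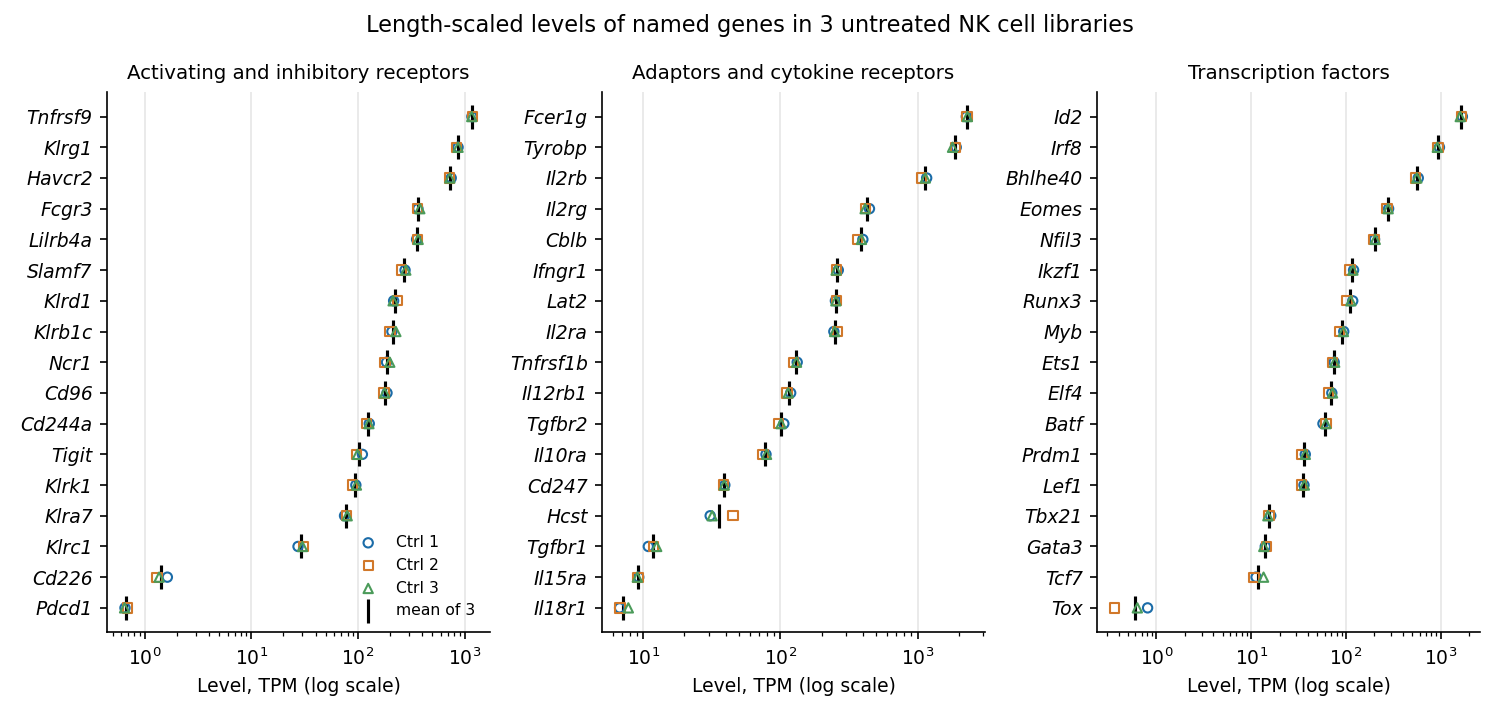
Level in TPM (log scale) of receptors, adaptors, cytokine receptors and transcription factors, with 1 symbol for each library and a bar at the mean of 3. Libraries of most genes nearly coincide; Hcst (30.8, 45.2 and 31.8 TPM) and Tox spread more, and Pdcd1 and Cd226 lie far below the other receptors.

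Transcription factors of NK cells were detected for 31 of 34 genes, with a median of 30.3 CPM. Irf8, a factor needed for NK responses to viruses, had 1503, 1476 and 1416 CPM. Bhlhe40 had 982, 928 and 940 CPM, and Id2, which holds E proteins back in innate lymphocytes, 883, 876 and 831 CPM. In TPM Id2 (1656 ± 42.7) stood above Irf8 (946 ± 24.6), and Irf8 above Bhlhe40 (561 ± 20.4), with no overlap.

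Both T-box factors were detected at unequal levels. Tbx21, the gene of T-BET, had 21.8, 21.2 and 20.1 CPM, and the TPM of Eomes was 17.5, 17.7 and 18.6 times that of Tbx21. Nfil3, which acts early in NK development, had 221, 221 and 223 CPM, and Runx3 249, 221 and 236 CPM. Tox averaged 1.29 CPM, and Tox2 was under 1 CPM in all 3 libraries.

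Trafficking and maturation genes gave a mixed pattern of levels, with 25 of 26 detected and a median of 107 CPM. Thy1, a surface glycoprotein of T cells that NK cells can also carry, had 1521, 1492 and 1418 CPM. The integrin chains of LFA-1 followed, Itgb2 with 998, 978 and 983 CPM and Itgal with 726, 698 and 721 CPM. Itga1 (CD49a) had 146, 135 and 147 CPM, whereas Itga2 (CD49b, the DX5 antigen) had 1.24, 0.669 and 0.671 CPM. Among chemokine receptors Ccr2 averaged 529 CPM, while Cxcr3 averaged 3.68 CPM and Cx3cr1 0.428 CPM. Cd27 averaged 6.50 CPM and Itgam (CD11b) 73.0 CPM.

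Most genes of the cytokine and chemokine list were low. Of its 27 genes 14 were detected (51.9%, against 66.2% of all genes), with a median of 1.10 CPM. Tgfb1, the gene of TGF-β1, led with 381, 377 and 356 CPM, or 48.3% of the sum, followed by Mif with 160, 180 and 172 CPM. That list does not hold Spp1, described above, or the chemokine gene Ccl6, which had 238, 289 and 337 CPM and was lowest in Ctrl 1. Ccl5 had 60.4, 76.4 and 70.2 CPM. Ifng, the hallmark cytokine of NK cells, had 8.07, 7.06 and 7.87 CPM.

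The TGF-β pathway was present in untreated cells with receptors at unequal levels. Tgfbr2, which binds the ligand, had 465, 430 and 440 CPM and gave 55.5% of the sum of 19 receptor and SMAD genes, of which 17 were detected. Tgfbr1, the signalling partner, had 34.1, 37.8 and 38.8 CPM, and the TPM of Tgfbr2 was 9.71, 8.07 and 8.05 times that of Tgfbr1. Smad2, a receptor-regulated SMAD, had 47.7, 48.6 and 49.1 CPM, and Smad4, the common partner, 41.1, 38.4 and 38.8 CPM. Smad3, the other receptor-regulated SMAD of this pathway, had 5.15, 4.20 and 3.41 CPM.

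Proliferation genes were all detected at moderate levels. The 30 mitosis genes had a median of 20.8 CPM and the 30 DNA replication genes one of 30.8 CPM. Mki67 had 122, 119 and 142 CPM, and the mitosis list summed to 764, 777 and 880 CPM, so that Ctrl 3 was the highest. Pcna, the replication clamp, had 138, 150 and 148 CPM. Cdkn1a, the inhibitor p21, had 285, 302 and 302 CPM.

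Housekeeping lists each took a few percent of counts or less. The 20 translation factors took 4.14%, the 26 actin genes 3.38%, the 20 glycolysis genes 1.25% and the 21 chaperone genes 1.10% of counts. Gapdh gave 29.6% of the glycolysis sum. All 28 nuclear genes of the respiratory chain were detected with a median of 96.5 CPM, and all 21 cholesterol synthesis genes with a median of 83.1 CPM. The table lists 0 mitochondrially encoded genes by symbol. MHC class I and its processing machinery were detected in full, in 20 of 20 genes with a median of 175 CPM. H2-D1 had 3099, 3105 and 2940 CPM and B2m, the light chain of class I molecules, averaged 2079 CPM. The table also lists H2-L at 679 CPM, but the GENCODE M21 annotation used here gave no record for it. Class I genes are near-identical, so it is uncertain which class I gene the reads listed under H2-L came from. Mcl1 gave 28.9% of the sum of the BCL2 family, in which 15 of 16 genes were detected.

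Interferon response genes were detected in 24 of 24 cases at a median of 21 CPM. Fos and Fosb, immediate early genes of acute stimulation, averaged 1.47 and 0.346 CPM, while Jund and Junb averaged 370 and 288 CPM.

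Markers of other cell types were read beside the NK list, in which 17 of 20 genes were detected with a median of 148 CPM. The NK list summed to 21894, 21037 and 21166 CPM, of which Gzmb alone gave 38.4%. Its members that were not detected were Itga2, Klrc2 and Ncam1. B cell markers were near 0, with 0 of 10 detected, a sum of 2.17, 2.13 and 2.12 CPM, and Pax5 listed at 0. Of 15 listed T cell markers only 11 had an entry, and 6 of these were detected (54.5%, against 66.2% of all genes). Those 11 summed to 1539, 1511 and 1437 CPM, of which Thy1 gave 98.8%. The CD3 chains Cd3d, Cd3e and Cd3g together had 9.55, 11.6 and 10.2 CPM.

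Stromal and endothelial markers showed the same pattern of 1 dominant gene. Pecam1, which leukocytes also express, gave 99.1% of their sum, and Col1a1 and Pdgfra were listed at 0. Neutrophil markers summed to 291, 309 and 275 CPM. Ctsg gave 92.7% of that sum, while S100a8 and S100a9 averaged 0.327 CPM each and Camp was at 0. Mast cell and basophil markers summed to 631, 614 and 620 CPM, with 11 of 13 detected. Mcpt8, Kit and Cma1 led, and the IgE receptor genes Fcer1a and Ms4a2 averaged 2.26 and 3.55 CPM. Ctsg, Mcpt8 and Cma1, the leading proteases of these lists, lie beside the granzymes on chromosome 14. Whether their position bears on their levels was not tested. Prss34, a protease gene of the mast cell and basophil list that is not among the 15 genes of that stretch, had 26.1, 29.1 and 38.3 CPM. Of the 13 genes of that list, 5 had 10 CPM or more.

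Markers of other innate lymphoid cells divided. All 8 ILC1 markers in the table were detected, with a median of 19.4 CPM, and Ctla2a gave 64.6% of their sum. Of 14 ILC2 and ILC3 markers 5 were detected (35.7%, against 66.2% of all genes). Those were led by Icos, a costimulatory receptor, with 216, 219 and 223 CPM, whereas Il22 was listed at 0. Progenitor markers were detected for 6 of 11 genes (54.5%, against 66.2% of all genes). Ly6a (Sca-1), which lymphocytes also express, gave 66.9% of the sum, while Cd34 averaged 1.47 CPM. Eosinophil markers were detected for 1 of 8 genes. Erythroid and megakaryocyte markers summed to 101, 109 and 121 CPM, of which Tfrc, a transferrin receptor of dividing cells, gave 60.4%.

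Macrophage and monocyte markers were detected for 18 of 18 genes, with a median of 36.4 CPM. Their sum was 2114, 2521 and 2757 CPM, or 0.246% of counts. Lyz2, the lysozyme gene of myeloid cells, had 646, 783 and 894 CPM. Apoe had 225, 320 and 370 CPM, and Csf1r, the receptor that maintains macrophages, 85.4, 94.7 and 107 CPM. The defining genes Adgre1 (F4/80) and C1qb were present at 25.9 and 34.2 CPM. Ccr2, which NK cells can express, had 513, 538 and 535 CPM.

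Of the 18 macrophage markers, 16 were lowest in Ctrl 1 and highest in Ctrl 3. The exceptions were Ccr2, highest in Ctrl 2, and Mertk, lowest in Ctrl 2. Of all 6552 genes with a mean of at least 20 CPM, 36.2% were lowest in Ctrl 1. The share of all genes with the full order of libraries was not computed, and the markers are not independent replicates. The highest library exceeded the lowest by a factor of 1.71 for C1qb, 1.64 for Apoe and 1.05 for Ccr2. MHC class II genes had the same order of libraries in their sum, with 592, 764 and 847 CPM. Cd74, the class II invariant chain, had 324, 423 and 476 CPM, and H2-Aa 102, 136 and 155 CPM. Dendritic cell markers were detected for 8 of 15 genes (53.3%, against 66.2% of all genes), with a median of 1.38 CPM, and 3 had 100 CPM or more. They summed to 675, 827 and 905 CPM, of which Cd74 gave 50.8%. Among the lowest, Flt3, Siglech and Cd209a averaged 0.163, 0.0414 and 0 CPM.

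**Figure D4:**
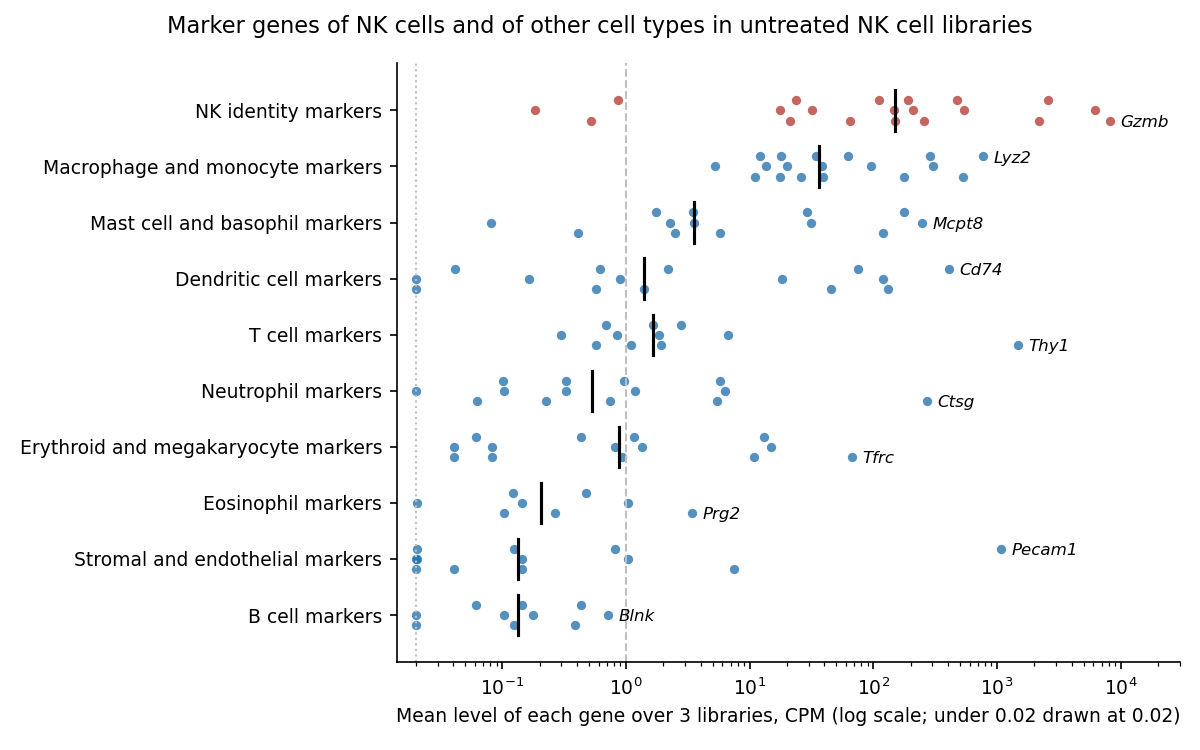
Mean level in CPM (log scale) of every marker gene of 10 cell type lists, with NK markers in red, other lists in blue, a bar at each list's median, a dashed line at 1 CPM and the highest gene named. Macrophage markers all lie above 5 CPM with a median of 36.4 CPM, whereas T cell and stromal lists have 1 gene each, Thy1 and Pecam1, far above the rest.

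Myeloid genes were among those that differed most between the 3 libraries. Of 6552 genes with a mean of at least 20 CPM, 56 (0.855%) had a coefficient of variation (CV, the SD divided by the mean) over 15%. Of these 56 genes 53 were lowest in Ctrl 1, as were 36.2% of all 6552. The 56 included 6 macrophage markers (Adgre1, Apoe, C1qb, C1qc, Lyz2 and Mpeg1) and 3 MHC class II genes (Cd74, H2-Aa and H2-Eb1). Between only 2 libraries the number of such genes was 34 without Ctrl 1 and 94 without Ctrl 2.

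Ranked by CV, Thbs1 came first, with 36.0, 38.0 and 19.5 CPM, and it was the only one of the first 15 not lowest in Ctrl 1. Next were C1qb, the scavenger receptor gene Marco (30.6, 51.4 and 46.4 CPM), the lysozyme gene Lyz1 (25.2, 40.0 and 39.7 CPM), Apoe, Msr1 and Sgk1. The others of the first 15 were H2-Eb1, Cd5l, H2-Aa, Prss34, Ccl9, Csf2rb2, Mmp14 and Gbp5. For Apoe the CV was 24%, against 1.42% from counting error alone. The macrophage markers were low in Ctrl 1, and their part in the level of any other gene was not tested.

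Among genes of 20 CPM or more, the named granule genes and markers of NK cells had a smaller spread. This does not cover the granzyme genes Gzmk and Gzmn, which lay under 20 CPM. The CV was 3.64% for Gzmb, 1.83% for Prf1, 1.19% for Eomes and 4.12% for Ncr1. It was 6.54% for Gzmf, 4.36% for Gzmg and 4.23% for Gzme. Other genes of the NK lists varied more: the CV was 15.4% for the transcription factor gene Zeb2 (24.8, 29.1 and 33.8 CPM), which was lowest in Ctrl 1. It was 23.7% for the adaptor gene Hcst, which lay under 20 CPM, where counting error is larger. For genes of 1000 CPM or more the median CV was 2.75%, against 0.629% from counting alone, and for genes of 1 to 10 CPM it was 11.9% against 11.8%. Ifng, a low gene, had a CV of 6.96%, against 8.94% from counting. The smallest CVs among genes of 20 CPM or more were those of Marchf6 (0.0634%) and Anp32b (0.0751%), both under their counting error.

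**Figure D5:**
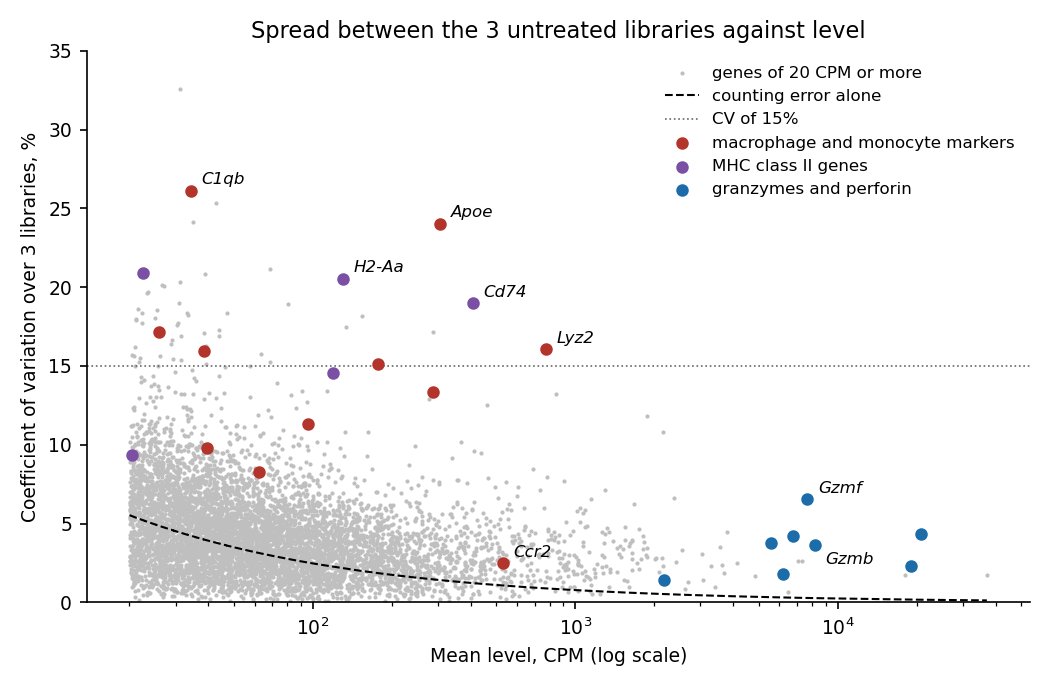
CV over the 3 libraries in percent against mean CPM (log scale) for genes of 20 CPM or more, with macrophage markers in red, MHC class II genes in purple, granzymes and perforin in blue, and the CV from counting error alone as a dashed line. Apoe (24%), Cd74 (19.0%) and Lyz2 (16.1%) stand above the dotted line at 15%, and the granzymes drawn and Prf1 at or below the 6.54% of Gzmf.

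Transcripts of the Y chromosome were detected in all 3 libraries. Eif2s3y had 121, 123 and 134 CPM and the other Y genes Ddx3y, Kdm5d and Uty averaged 78.6, 45.2 and 44.7 CPM. Xist, the RNA of the inactive X chromosome, had 0.195, 0.131 and 0 CPM. All 3 libraries shared this pattern.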

How the data were processed

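Poly-A RNA (1 µg) was read as 100-base pairs on a DNBseq instrument, per the labels' protocols. The authors deposited 1 table of expected counts. Its values carry no scaling for depth, and the unit follows from them: 10.2% to 10.8% of the values of a library are not whole. Tools listed in the submitters' processing notes, with no role or version, are Bowtie2, Cufflinks, DESeq2, HISAT2, RSEM and StringTie, and the builds listed are mm10 and GRCm38. Gene annotation and strand setting were not given in the sources used here, so overlapping and antisense genes cannot be told apart.

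CPM were computed from column totals with pandas 2.3.3, and TPM over 16654 genes with the length of the GENCODE M21 transcript of longest coding sequence, matched by Entrez number (15826) or symbol (828). The other 222 genes (0.218% of counts) have no TPM. No test was run and no p-value is given, since the 3 libraries form 1 group. Values are mean ± SD over 3 libraries. Levels of genes differ in order where their libraries do not overlap. The variance between pairs of libraries was 2.76 to 3.11 times that of counting alone. Libraries were therefore not identical copies, but repeat libraries from 1 RNA or culture cannot be told apart from separate ones. The level computation was checked on simulated data.

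The 43 gene lists, 21 families and the members were chosen with earlier results of these data known. Named genes were drawn from the 30 highest by CPM and by TPM, up to 6 leading members of each list and defining members under 1 CPM, the 5 markers, the 15 genes of 20 CPM or more with the largest and smallest CV, and leading family members. Numbered models, Rik symbols and pseudogenes were left out. Further genes, such as Tbx21, Ifng, Hcst, Tgfbr1, Smad3, Cish, Dsc2 and Cd55, were chosen after their values were seen. Alternatives covered the detection limit, TMM factors (edgeR 4.0.16 in R 4.3.3), totals without ribosomal protein genes, rounding, length and each library left out.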

Additional observations from a re-analysis of the deposited data

How the results depend on the processing

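Over 27 results and 14 settings, 147 of 182 values under an alternative moved by less than the limit for a change, and 35 moved by more. For levels and shares of counts, that limit was the SD between libraries. Dropping 1 library from a group of this size cannot move a mean by that much. For levels and shares, leaving out 1 library therefore could not test stability. Over all results, leaving out 1 library kept 79 of 81 values within the limit. The exceptions were the number of genes with a CV over 15%, which ran from 34 (without Ctrl 1) to 94 (without Ctrl 2). That number was 415 from a mean of 5 CPM and 8 from a mean of 100 CPM. Totals without ribosomal protein genes raised all CPM by construction: the 10 highest genes took 15.2%, the granzymes summed to 76865 CPM and the NK list to 23426 CPM. Detected genes numbered 11717 at 0.5 CPM, 9411 at 5 CPM, 11635 with 1 library enough and 11169 with TMM factors. The exon-union length was added after the data were seen. Of the marker ranks, that of Klrk1 went from 2928 by CPM to 1325 per transcript length and 3102 per exon union, and that of Ncr1 from 1149 to 635 and 588. Depth limits genes under about 1 CPM. No paired analysis was possible because 1 group was described and no groups were compared.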
